A study of Cyanidioschyzon merolae strain 10D with 3 samples.

Results

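The 521 T loci are the features of the *C. merolae* nuclear genome annotation whose identifiers end in T, and they made up 521 of the 6823 loci in the expression tables. They were chosen by that letter alone and by no measured value. All 521 matched a RefSeq entry of assembly ASM9120v1 by locus tag, all 521 were typed there as miscellaneous RNA, and none carried a name other than its locus tag. All 521 lay on the 20 nuclear chromosomes, beside 6516 annotated nuclear loci in all. The loci set beside them were the 4803 nuclear loci ending in C, all of which RefSeq types as protein-coding.

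*Cyanidioschyzon merolae* is a unicellular red alga from acidic hot springs, with a small, gene-dense genome and few introns. Strain 10D was kept in liquid culture at 42°C, shaken at 150 rpm and lit continuously at 70 µmol, and RNA from 3 cultures labelled as biological replicates (libraries 1, 2 and 3) was read as poly(A) RNA after oligo(dT)-primed cDNA synthesis. There was 1 condition and no second group, so the values below describe the T loci beside the C loci in each library, with no test. FPKM, the fragments of a locus scaled to its length and to all mapped fragments of the library, is an average over the culture, in which fewer cells with a transcript and less transcript per cell cannot be told apart.

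Eukaryotic nuclei make polyadenylated transcripts that hold no long reading frame beside their messenger RNAs. Such non-coding transcripts can lie between genes, or across a gene on either strand, and in plants and yeasts some antisense members are known to influence the gene they cross. In a compact genome a transcript of usual length often reaches into its neighbour. The tables list positions without strand, and the labels do not say that the libraries kept strand, so fragments from a T locus and from an overlapping C locus cannot be told apart where they share bases.

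Between libraries 2 and 3 the T loci differed by even less than sampling noise would give. At the 195 T loci that share no base with another locus, the confidence limits imply fragment numbers. Over the 192 of these above 20 fragments in both libraries, the mean chi-square per locus was 0.259, where sampling alone gives a value near 1. The same index was 23.7 over 192 T loci for libraries 1 and 2, and 22.3 over 193 T loci for libraries 1 and 3. Libraries 2 and 3 were therefore counted as 1 sample in every mean ± SD, with n = 2. The 195 T loci held 640217, 128719 and 133734 of these fragments across libraries 1 to 3, out of 12976591, 2876527 and 2978307 over all 4955 loci without overlap, a share of 4.93%, 4.47% and 4.49%. Library 1 was thus the deepest, with a median of 2289 fragments per T locus against 451 and 473 in libraries 2 and 3.

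T loci were long and of narrow range. They spanned 567 to 6793 bp with a median of 1917 bp and quartiles of 1646 and 2374 bp, against 75 to 18060 bp with a median of 1272 bp for the nuclear C loci. Of the T loci, 280 (53.7%) were at least 1000 but under 2000 bp long and 233 (44.7%) were at least 2000 bp. Only 8 were shorter, 7 of at least 600 but under 1000 bp and 1 of under 600 bp. The length was a multiple of 3 at 34.0% of T loci and at 99.6% of nuclear C loci, so the C loci were annotated by coding length and FPKM there is per base of coding length.

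The T loci as a class lay near the level of protein-coding genes. Their median FPKM was 55.8, 50.1 and 50.9 in libraries 1, 2 and 3, against 57.7, 60.5 and 60.4 at nuclear C loci. The T median averaged 53.3 ± 3.53 FPKM and the C median 59.1 ± 2.07 FPKM (SD, n = 2). On the log2(FPKM + 1) scale, which understates differences at low values, the T median minus the nuclear C median was -0.048, -0.27 and -0.24 across libraries 1 to 3. This came to -0.15 ± 0.14 (SD, n = 2), so the gap was about as large as the spread between replicates, and library 1 carried the smaller gap. Above the median nuclear C locus lay 246 T loci (47.2%) in library 1 and 210 (40.3%) in each of libraries 2 and 3.

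The T loci also had a narrower spread of FPKM at the top. Their 90th percentile was 162, 156 and 158 FPKM in libraries 1, 2 and 3, against 215, 251 and 252 FPKM at nuclear C loci. Only 6.14%, 4.99% and 4.99% of T loci passed the 90th percentile of the C loci, and above 1000 FPKM stood 3, 2 and 2 T loci (0.576%, 0.384% and 0.384%) against 48, 72 and 73 C loci (0.999% in library 1 and up to 1.52% in library 3). Part of this went with length. Among the 4204 nuclear C loci within the length range of T loci, the 90th percentile was 189, 200 and 200 FPKM, still above that of T loci, and 0.547%, 0.642% and 0.642% passed 1000 FPKM, fewer than among T loci in library 1. Between the quartiles of the nuclear C loci lay 58.2%, 55.5% and 55.9% of T loci. The mean FPKM, which the highest loci set, was 88.0, 84.3 and 84.7 for T loci and 113, 142 and 143 for nuclear C loci.

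Among loci of like length from 1000 bp upwards the classes lay close together, with no order that held in both ranges and every library. In the range from 1000 up to 2000 bp, the median of the 280 T loci was 61.0, 55.1 and 55.2 FPKM in libraries 1, 2 and 3, against 56.7, 57.5 and 57.5 FPKM at 2001 nuclear C loci. Here T loci were higher in library 1 and lower in libraries 2 and 3. Among loci of at least 2000 bp, 233 T loci had a median of 48.8, 43.9 and 45.1 FPKM and 1105 C loci one of 43.0, 41.0 and 41.3 FPKM, with T loci higher in each library. Weighted over both ranges, the log2(FPKM + 1) difference was 0.14, 0.011 and 0.025 for libraries 1, 2 and 3. It averaged 0.079 ± 0.082 (SD, n = 2), no larger than the spread between replicates. As a mean over loci it was -0.0375, of the other sign. Against the 4204 nuclear C loci within the length range of T loci, the T median stayed lower, by a difference of -0.12 in the mean of the 3 libraries. With the loci that overlap another left out of both classes, the binned difference was 0.028, -0.10 and -0.079 in libraries 1, 2 and 3.

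**Figure D1:**
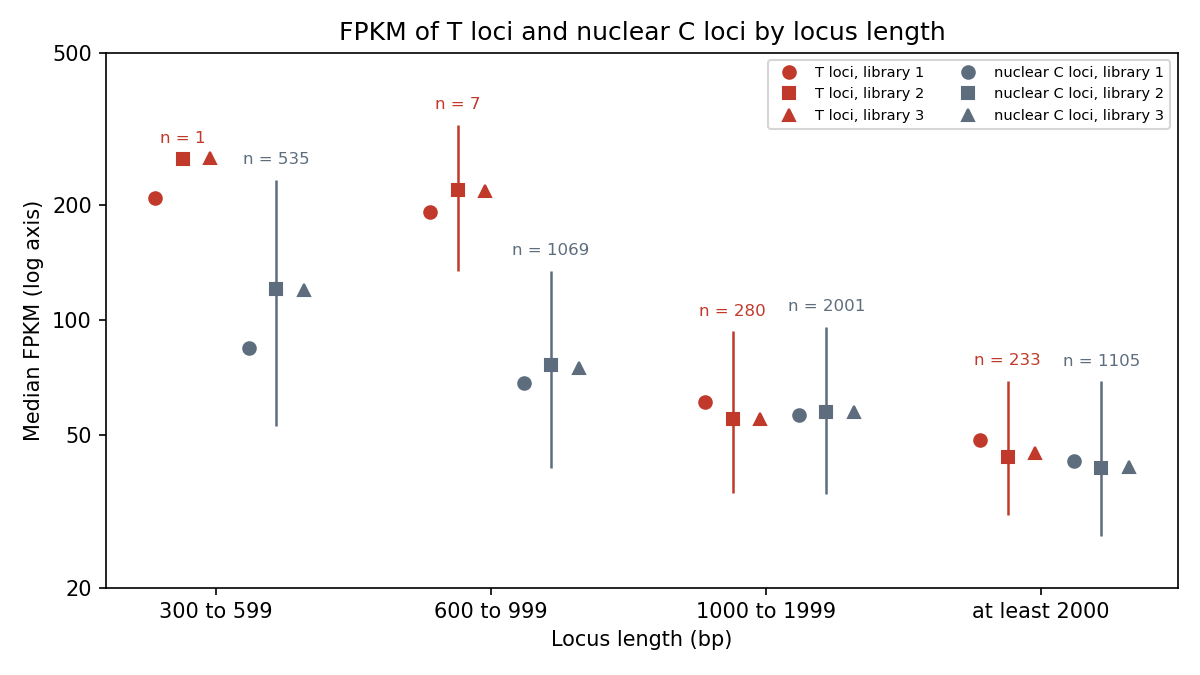
Median FPKM (log axis) of T loci and nuclear C loci in 4 ranges of locus length (bp), a point per library, with a vertical line from the lower to the upper quartile of the mean FPKM over the 3 libraries and the number of loci above it. In both ranges under 1000 bp the T points sit above the C points of the same library, while in both ranges from 1000 bp upwards the quartile lines of the classes overlap almost whole.

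The few short T loci were high. The 7 T loci from 600 up to 1000 bp had a median of 192, 219 and 217 FPKM, against 68.5, 76.2 and 75.2 FPKM at 1069 nuclear C loci, and their lowest mean over the 3 libraries was 112 FPKM. CMJ224T, the shortest with 567 bp (chromosome 10 from 607417 to 607983), had 209, 263 and 265 FPKM in libraries 1, 2 and 3. The next shortest was CMS137T with 780 bp (chromosome 19 from 353419 to 354198), at 192, 219 and 217 FPKM. CMH130T, with 791 bp (chromosome 8 from 318427 to 319217), had 430, 397 and 398 FPKM. None of these 3 shared a base with another locus. At the other end, the 3 longest T loci were CML109T with 6793 bp (chromosome 12 from 242673 to 249465), CMI019T with 6414 bp (chromosome 9 from 56512 to 62925) and CMK025T with 5034 bp (chromosome 11 from 66419 to 71452). CML109T had 22.4, 20.6 and 21.4 FPKM, CMI019T 63.4, 64.6 and 63.5 FPKM, and CMK025T averaged 24.7 ± 3.17 FPKM (SD, n = 2). Over the 195 T loci without overlap, length and log2(FPKM + 1) had a Pearson r of -0.34, -0.37 and -0.37 and a Spearman rho of -0.28, -0.31 and -0.31 in libraries 1, 2 and 3. Over the 3989 nuclear C loci without overlap, rho was -0.23, -0.33 and -0.33. These are descriptions across loci that share a library and are not independent.

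The highest T locus was CMI153T, a 1046 bp locus on chromosome 9 from 418674 to 419719 that shares no base with another. It had 2492, 2790 and 2799 FPKM in libraries 1, 2 and 3, or 2643 ± 214 FPKM (SD, n = 2), from 44193, 10610 and 10860 implied fragments. By its mean it stood above 99.5% of nuclear C loci. CMI154C, the nearest protein-coding locus at a distance of 78 bp, had 93.1, 128 and 130 FPKM. CMO174T (chromosome 15 from 446862 to 449321) followed with 2322, 2323 and 2309 FPKM, almost the same in the 3 libraries. It contains CMO175C and overlaps CMO176T, and both of these were listed at 0 FPKM in every library.

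CMF009T (chromosome 6 from 22182 to 23085, 904 bp, no overlap) had 1102, 818 and 840 FPKM and was higher in library 1. CMK142T (chromosome 11 from 383609 to 386548) had 845, 774 and 780 FPKM. The remaining 6 of the 10 highest had means of 408 to 503 FPKM. CMR243T, on chromosome 18, had 478, 515 and 517 FPKM, and CMT569T, on chromosome 20, had 423, 537 and 537 FPKM. CMI297T and CMI039T, both on chromosome 9, had 453, 493 and 487 FPKM and 415, 411 and 407 FPKM. CME184T (chromosome 5 from 481096 to 482289, no overlap) had 502, 405 and 417 FPKM, and CMH130T, described above, closed the list. The SD between replicates (n = 2) was 0.180% of the mean at CMO174T, the lowest of the 10, and 19.9% at CMF009T, the highest.

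**Figure D2:**
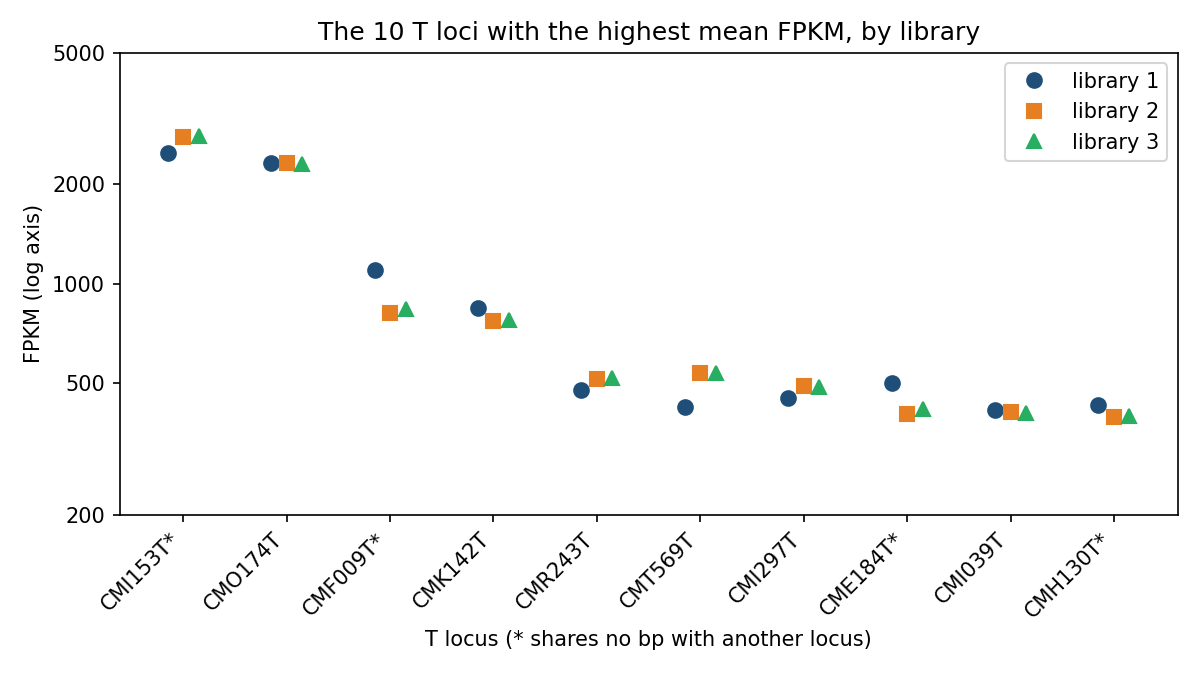
FPKM (log axis) of the 10 T loci with the highest mean over the 3 libraries, a point per library, with an asterisk at the 4 loci that share no bp with another locus. CMI153T and CMO174T stay above 2000 FPKM in every library, and libraries 2 and 3 lie close together at each locus.

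Of these 10, CMI153T, CMF009T, CME184T and CMH130T, shared no base with any locus. With CMA012T (chromosome 1 from 35791 to 37028) at 459, 318 and 327 FPKM, they were the 5 highest T loci without overlap. They held no annotated base in common with a neighbour between which fragments could be divided. C loci were annotated by coding length, and whether transcripts of a neighbour reach into these T loci beyond it was not tested. The nearest C loci of these 5, at 78 to 1214 bp, had mean FPKM from 56.8 to 117, each below its T locus in every library. Since the 5 were chosen for high FPKM, a lower neighbour was likely from the start. Over all 263 T loci without C overlap, the T locus was above its nearest C locus in 43.0%, 38.8% and 39.9% across libraries 1 to 3.

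Nearly every T locus that stood alone was detected. Of the 195 without overlap, 194 (99.5%) passed 3 fragments in all libraries, as did 3917 of 3989 nuclear C loci without overlap (98.2%). More than 100 fragments in every library were reached by 179 T loci (91.8%) and 3505 C loci (87.9%). The exception was CMG068T, a 2678 bp locus on chromosome 7 from 183579 to 186256, with 3.00 fragments (0.0506 FPKM) in library 1 and 0 in libraries 2 and 3, a count that allows up to 3 fragments. It was singled out after its values were seen, as were the next lowest without overlap. These were CMI287T with 1.81, 1.65 and 1.82 FPKM and CMK111T with 2.29, 2.16 and 2.45 FPKM, from 75.1 and 86.6 fragments in library 1. Intervals and limits of this kind cover counting error only.

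T loci overlapped other loci far more often than protein-coding loci did, and about as often as Z loci, another class of the annotation. Of the 521, 326 (62.6%) shared at least 1 bp with another locus, against 814 of 4803 nuclear C loci (16.9%). Among Z loci it was 502 of 797 (63.0%), among X loci 82 of 346 (23.7%) and among R loci 20 of 115 (17.4%). A C locus was overlapped by 258 T loci (49.5%), a Z locus by 58, an X locus by 21, an R locus by 4 and another T locus by 32. Among the 258, a median of 841 bp or 39.5% of the T locus lay within C loci, from 2 bp up to 4593 bp. 98 were covered by C loci over at least 50% of their length and 16 completely.

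T loci with and without C overlap had close medians over all lengths, and stood further apart within length ranges. The 258 T loci with C overlap had a median of 57.3, 50.7 and 50.9 FPKM in libraries 1, 2 and 3, against 52.8, 49.7 and 50.9 FPKM at the 263 T loci without. The difference on the log2(FPKM + 1) scale was 0.11, 0.031 and 0.00016, or 0.071 ± 0.061 (SD, n = 2), about the size of the spread between replicates. The T loci with C overlap were longer, with a median of 2091 bp against 1771 bp. Within length ranges, a comparison chosen after seeing the data, the difference was 0.26, 0.16 and 0.16, or 0.21 ± 0.068 (SD, n = 2), larger than the spread between replicates. With an overlap of at least 50% of the T locus asked for and all lengths together, the difference was -0.26, so its sign depended on that choice. Where C loci covered over 25% and up to 50% of the T locus, the median of 89 T loci was 69.4, 61.1 and 61.6 FPKM. It was 36.3, 35.4 and 33.2 FPKM at the 16 T loci lying wholly within C loci, the lowest of the ranges of overlap. T loci that overlapped a Z, T, X or R locus but no C locus were also low, with a median of 40.6, 42.7 and 41.8 FPKM (n = 68).

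The clearest pattern among overlapping loci lay in the partner. T and C loci formed 285 overlapping pairs, of 258 T loci and 282 C loci. In 62 pairs (21.8%) the C locus was listed at 0 FPKM in all 3 libraries while the T locus was not, in 8 (2.81%) the reverse held, and in 2 both were at 0. Of all 6823 loci, 6.07% were listed at 0 in every library, and of the 1868 that overlap another locus, 16.2%. Of the 282 nuclear C loci that a T locus overlapped, 61 (21.6%) were at 0, against 40 of 532 C loci (7.52%) that overlapped only other classes and 16 of 3989 (0.401%) without overlap. Every locus had the status OK. Whether a listed 0 is nevertheless a failed estimate, or the C genes are silent, was not tested.

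A C locus was listed at 0 most often where it lay inside the T locus, and more often than the T locus also where only the ends overlapped. In the 61 pairs with the C locus wholly inside the T locus, the C locus alone was at 0 in 32 (52.5%) and the T locus in none. In the 16 pairs with the T locus inside the C locus, the T locus was at 0 in 2 and the C locus in none. In the 208 pairs that overlap only at their ends, the C locus alone was at 0 in 30 (14.4%) and the T locus alone in 6. In single libraries the nested C locus was at 0 while its T locus was not in 41, 34 and 35 of the 61 pairs. Over all 285 pairs exactly 1 partner was at 0 in 24.6%, and over those that overlap only at their ends in 17.3%. By comparison, in 58 pairs of overlapping nuclear C loci exactly 1 partner was at 0 in 13.8%. In 427 pairs of a Z and a C locus it was 22.7%, with the C locus alone at 0 in 7.03%. Pairs of a T locus with a Z locus gave 33.3% (n = 60) and with an X locus 69.6% (n = 23). These comparison pairs were not split by nesting. In the 62 pairs with a C locus at 0, the T locus had a median of 55.0 FPKM and ranged from 3.78 to 2318 FPKM.

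Several of the highest T loci belonged to such pairs. CMO174T contains CMO175C and CMI297T contains CMI298C, and both C loci were listed at 0 FPKM in every library. CMT569T shares only 2 bp with CMT568C, and there too the C locus was at 0. The other 3 overlapping members of the 10 highest had a C partner listed above 0. CMK141C had 280, 254 and 251 FPKM beside the higher CMK142T, CMR244C had 888, 1028 and 1019 FPKM beside the lower CMR243T, and CMI040C had 719, 756 and 775 FPKM beside the lower CMI039T.

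**Figure D3:**
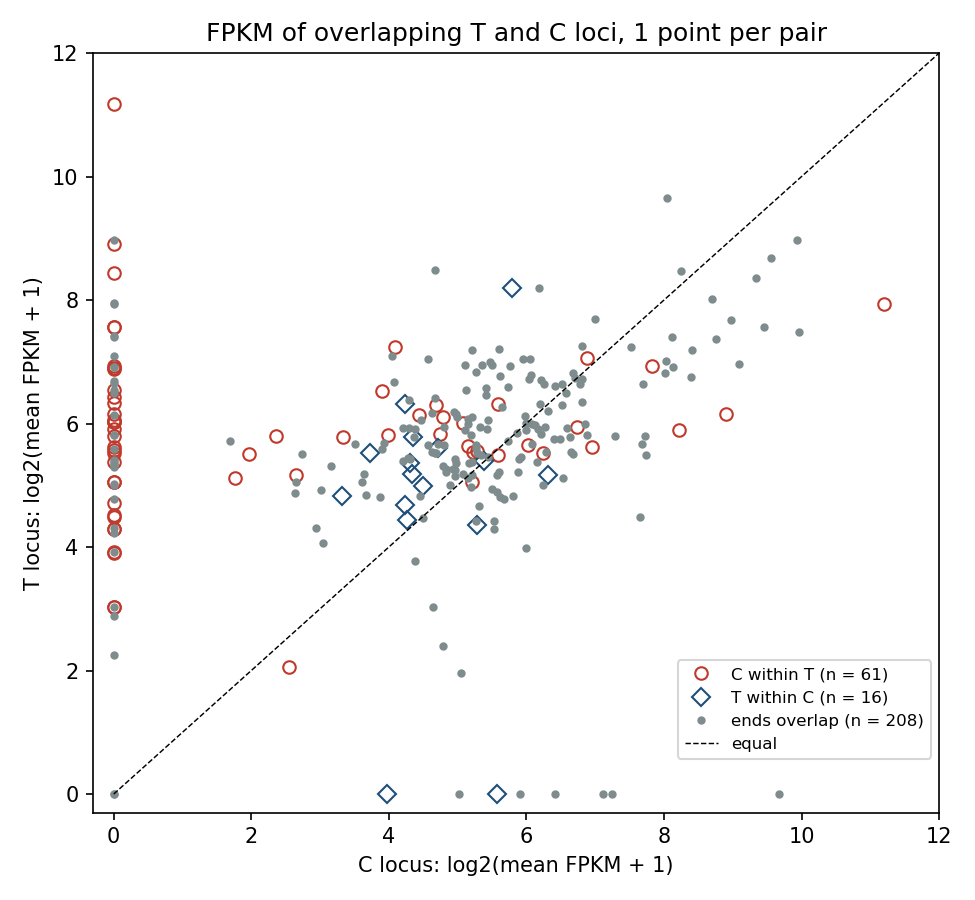
log2(mean FPKM + 1) of the T locus against that of the C locus in the 285 overlapping pairs, a point per pair, marked by whether the C locus lies within the T locus, the T locus within the C locus or only their ends overlap, with a dashed line of equal values. The column of points at 0 on the horizontal axis holds the pairs with a C locus listed at 0, and the few points at 0 on the vertical axis the T loci listed at 0.

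The 5 T loci that share most bases with a C locus showed each of these outcomes. CMI019T shares 4593 bp with CMI020C, which lies inside it and was listed at 0, while CMI019T kept 63.4, 64.6 and 63.5 FPKM. CMR485T (chromosome 18 from 1192257 to 1196616) lies wholly within CMR484C over 4360 bp and had 19.3, 19.9 and 19.2 FPKM, against 32.6, 41.2 and 39.3 FPKM for the C locus. CMM137T (chromosome 13 from 312726 to 316258) lies wholly within CMM138C over 3533 bp and had 27.2, 23.2 and 23.2 FPKM, above the 18.2, 17.9 and 17.6 FPKM of the C locus. CMQ080T (chromosome 17 from 184093 to 187078) shares 2977 bp with CMQ079C. It had 50.3, 43.9 and 31.6 FPKM against 44.6, 60.1 and 69.9 FPKM, and here libraries 2 and 3 stood apart, where their median distance over T loci was 0.035 on the log2(FPKM + 1) scale. CMI008T (chromosome 9 from 20763 to 23554) shares 2791 bp with CMI007C and was listed at 0 in every library, beside 36.0, 28.8 and 29.3 FPKM for the C locus.

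Where both partners were above 0, their levels were related, least so where few bases of the C locus were shared, but not equal. Over these 213 pairs the T locus was higher in 128 (60.1%), and the median log2 ratio of T to C was 0.32 with quartiles of -0.67 and 1.21. Pearson r of log2(FPKM + 1) was 0.54 and Spearman rho 0.48 over the pairs, which share bases and libraries. Where up to 25% of the C locus was shared, rho was 0.16 (57 pairs). It was 0.53 over 25% and up to 50% (51 pairs), 0.56 over 50% and up to 75% (42 pairs) and 0.57 above that (63 pairs). With the pairs that hold a 0 kept, rho was 0.26 over the 285 pairs. The 263 T loci without C overlap were set beside the nearest C locus, at a median distance of 283 bp (5 to 3645 bp). There rho was 0.20 over the 251 with both loci above 0, and with the others kept 0.19 over the 263. The T locus was higher in 113, 102 and 105 of these 263 cases in libraries 1, 2 and 3. Over the 195 T loci without any overlap, zeros kept, rho was 0.20, 0.25 and 0.24 by library.

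All T loci listed at 0 in every library overlapped another locus. There were 18 of them (3.45%), beside 117 of 4803 nuclear C loci (2.44%). 9 overlapped a C locus and 9 only Z or T loci, and each of the 18 overlapped at least 1 locus that was above 0 in some library. Among T loci with overlap, the share at 0 was 5.52%, against 16.2% of all 1868 loci that overlap another. Among the 195 without overlap 0 of 195 were at 0 in every library. Of all 4955 loci without overlap 112 (2.26%) were at 0, and of the 3989 nuclear C loci without overlap 16 (0.401%), a share close to that of T loci. Some of the 18 lay beside very high loci. CMO176T overlaps CMO174T over 762 bp, CMR281T overlaps CMR282C (769, 840 and 833 FPKM) over 522 bp, and CMN236T overlaps CMN235Z (703, 600 and 598 FPKM) over 1046 bp, all chosen after their values were seen. A further 4 T loci were at 0 in 1 or 2 libraries only, such as CMS473T with 12.7 FPKM in library 1 and 0 in libraries 2 and 3.

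T loci overlapped each other in 16 pairs. In 4 of these exactly 1 partner was listed at 0 in every library, and over the other 12 pairs Spearman rho was 0.13. CMM124T, at 0, lies wholly within CMM123T, which had 35.9, 33.5 and 32.1 FPKM. CMK250T, also wholly inside its partner, had 30.0, 32.4 and 39.1 FPKM while the surrounding CMK249T had 29.1, 17.5 and 13.6 FPKM, so that the inner locus was the higher one in each library, by a narrow margin in library 1. These pairs were chosen after their values were seen.

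T loci were spread over all 20 chromosomes in step with the C loci. They numbered 8 on chromosome 2 to 50 on chromosome 18, and their number followed that of the C loci with a Spearman rho of 0.87 over the 20 chromosomes. Up to the end of the last annotated locus, the density was 31.6 T loci per Mb, from 17.6 on chromosome 2 to 41.3 on chromosome 7. T loci were 4.76% of the loci of chromosome 2 and 10.7% of those of chromosome 7. Within 20 kb of the first base or of the last annotated base lay 25 T loci (4.80%) against 183 nuclear C loci (3.81%), and the outermost T locus was 3664 bp from that point. The medians of these 25 T loci, 52.8, 47.6 and 47.7 FPKM, were close to the 55.8, 50.1 and 50.9 FPKM of the other T loci. At nuclear C loci the medians were 53.3, 46.0 and 46.3 FPKM within 20 kb and 57.8, 60.9 and 60.5 FPKM elsewhere.

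The median FPKM of T loci differed between chromosomes, and in libraries 2 and 3 it followed chromosome size. In library 1 it ran from 43.1 FPKM on chromosome 4 to 76.3 FPKM on chromosome 16, and in library 2 from 25.6 FPKM on chromosome 2 to 85.3 FPKM on chromosome 20. Library 3 gave 25.6 and 86.4 FPKM for the same chromosomes as library 2. The Spearman rho of the T median with the end of the last locus was 0.17, 0.73 and 0.72 for libraries 1 to 3 (n = 20 chromosomes). The T median lay below the C median in all 3 libraries on 12 chromosomes and above it in all 3 on 6. The widest gaps were on chromosome 4, where 15 T loci had a median of 43.1, 30.1 and 32.1 FPKM against 72.6, 60.9 and 61.9 FPKM for 142 C loci, and on chromosome 11, where 32 T loci had 48.0, 40.9 and 40.3 FPKM against 65.3, 66.2 and 65.5 FPKM for 237 C loci. On chromosome 16 the order was turned, with 76.3, 70.0 and 73.7 FPKM at 22 T loci against 55.1, 56.1 and 56.6 FPKM at 262 C loci.

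**Figure D4:**
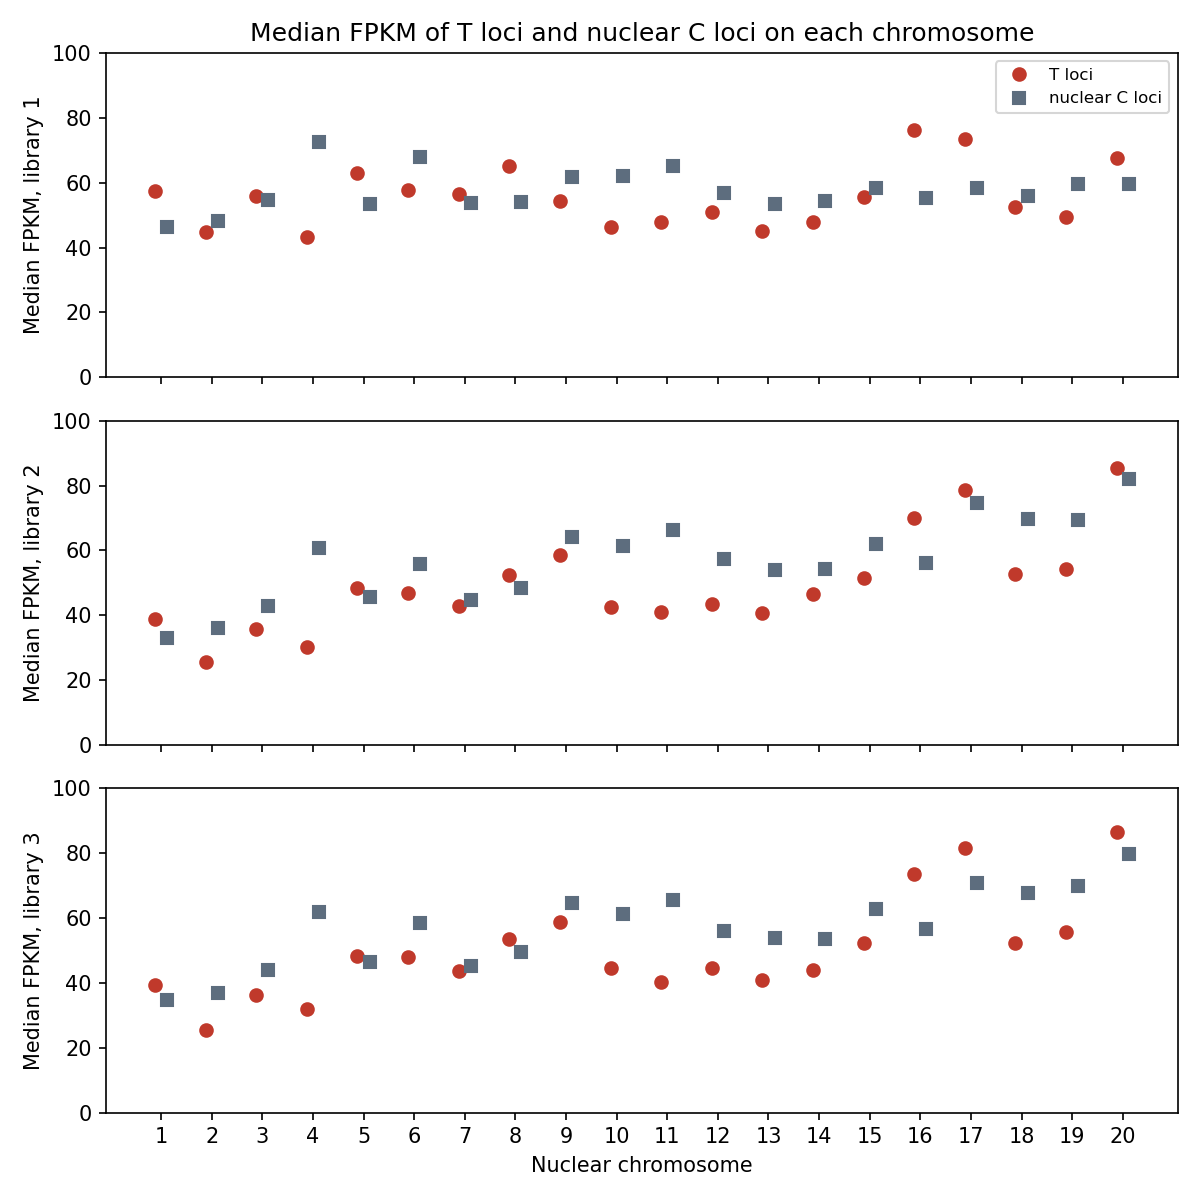
Median FPKM of T loci and nuclear C loci on each of the 20 nuclear chromosomes, in library 1 (top), library 2 (middle) and library 3 (bottom). In libraries 2 and 3 both classes climb towards the larger chromosomes, with T medians from 25.6 FPKM on chromosome 2 to 85.3 and 86.4 FPKM on chromosome 20, while library 1 shows no such climb.

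Library 1 differed from libraries 2 and 3 at T loci by an amount that followed the chromosome. Over the 502 T loci with a mean of at least 1 FPKM, log2(FPKM + 1) in library 1 minus that of the mean of libraries 2 and 3 had a median of 0.089, with percentiles 5 and 95 at -0.34 and 0.60, against a median of -0.066 at 4621 nuclear C loci. The T median was 0.52 on chromosome 1, 0.61 on chromosome 2 and 0.24 on chromosome 8. On chromosomes 17, 18, 19 and 20 it was -0.18, -0.11, -0.14 and -0.33. Of the T loci on chromosomes 1 to 8, 121 of 122 were higher in library 1, against 160 of 217 on chromosomes 9 to 16 and 31 of 163 on chromosomes 17 to 20. Among nuclear C loci the share higher in library 1 was 80.4% to 96% by chromosome on chromosomes 1 to 8. It was 16.1% to 60.9% on chromosomes 9 to 16 and 1.48% to 7.10% on chromosomes 17 to 20. Over all chromosomes 62.2% of T loci and 41.8% of nuclear C loci were higher in library 1.

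The same ladder ran through the C loci. Their median difference was 0.47 on chromosome 1 and -0.43 on chromosome 20, and over the 20 chromosomes the T and C medians had a Pearson r of 0.99. Against the end of the last locus, which stands for chromosome length, Spearman rho was -0.94 for T loci and -0.93 for C loci. Chromosome 9 stood out from the ladder with -0.065 for T loci and -0.14 for C loci, while these were 0.24 and 0.17 on chromosome 8 and 0.16 and 0.045 on chromosome 10. Libraries 2 and 3 showed no such ladder between them, with T medians of library 2 minus library 3 from -0.071 to 0.0072. The origin of the pattern was not tested.

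On every chromosome the T median exceeded the C median, by 0.055 to 0.17 with a median of 0.097. Among loci from 1000 up to 2000 bp the median difference was 0.072 at T loci and -0.012 at C loci, and among loci of at least 2000 bp it was 0.12 at T loci and 0.064 at C loci, so T loci stood higher within both ranges.

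**Figure D5:**
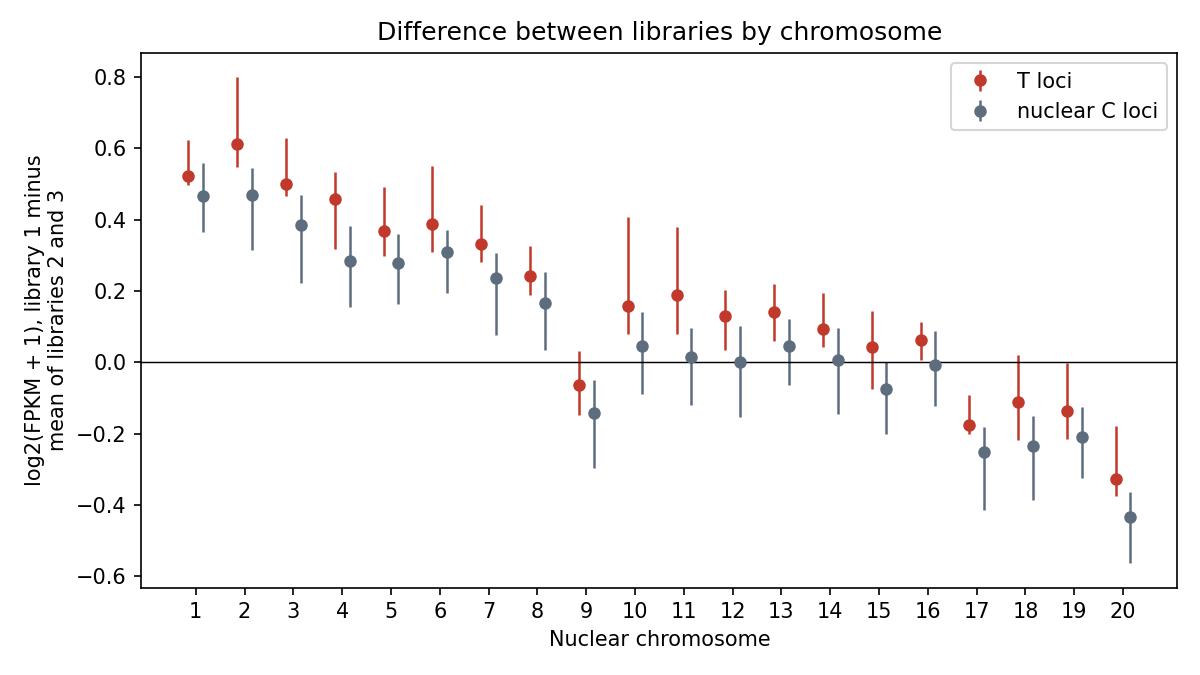
Difference in log2(FPKM + 1) between library 1 and the mean of libraries 2 and 3 on each nuclear chromosome, as the median (point) and quartiles (line) over T loci and over nuclear C loci with a mean of at least 1 FPKM. Both classes step down from the small to the large chromosomes, and the T median lies above the C median on each of the 20.

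More than 1.5-fold higher in library 1, on the log2(FPKM + 1) scale, were 30 of the 502 T loci (5.98%), where 3.35% of all 6095 loci with a mean of at least 1 FPKM passed the same fold. More than 1.5-fold lower were 2 T loci (0.398%), against 7.1% of all loci, but at like length the lower shares lay closer together. From 1000 up to 2000 bp, 0.373% of T loci and 0.778% of nuclear C loci were more than 1.5-fold lower. Among loci of at least 2000 bp it was 0.442% and 0.461%. More than 1.5-fold higher were 3.73% of T loci and 1.87% of C loci in the first range, and 8.85% and 3.69% in the second. Of the 30, 21 lay on chromosomes 1 to 8, where 122 of the 502 T loci are. The nuclear C loci were alike, with 67 of the 95 past the same fold there, where 1151 of the 4621 C loci are. Relative to the C median of their own chromosome, 13 of the 502 T loci were more than 1.5-fold higher and 1 lower. No share of C loci by this measure is given beside it, so an excess at T loci cannot be read from it. The same limits-based number was required to pass 20 in the 3 libraries for the 5 T loci with the largest difference, overlapping loci included. These 5 were all higher in library 1. CMJ312T (chromosome 10) had 29.4, 12.7 and 14.2 FPKM, a log2 difference of 1.07. CMF140T (chromosome 6, no overlap) had 36.9, 16.7 and 18.5 FPKM, a difference of 1.03 from 1806, 170 and 199 fragments. CMB147T (chromosome 2, no overlap) had 17.2, 8.53 and 7.57 FPKM, a difference of 1.01. The last of the 5 were CMN005T on chromosome 14 with 21.4, 10.4 and 10.7 FPKM and CMC185T on chromosome 3 with 41.6, 22.5 and 21.4 FPKM. At the 3 of these that overlap a C locus that number served only as the filter, since it is not a fragment count there.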

How the data were processed

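The authors isolated RNA from *C. merolae* 10D, prepared TruSeq libraries from oligo(dT)-primed cDNA, sequenced paired ends and ran FastQC and the Tuxedo protocol in Galaxy against the *C. merolae* Genome Project v3 annotation, the build of all coordinates given here. The authors deposited a Cufflinks table per library with FPKM and its confidence limits per locus. Versions and strand settings are not given in the sources used here. All 3 tables list the same 6823 loci, each with status OK. T loci, C loci and overlaps were taken from identifiers and positions, counted from 1. Fragments were implied as (FPKM / SD) squared, with the limits taken as 2 SD from the value, and printed at loci without overlap only; at overlapping loci the same number served only as a filter for naming loci. Medians were taken on log2(FPKM + 1), with a pseudocount of 1. Loci named in the text were the 10 highest by mean FPKM, the 5 highest without overlap, the 5 sharing most bp with a C locus, the 3 longest and 3 shortest, and the 5 that differ most between library 1 and the others. Members, lists and comparisons were chosen with earlier results of these data known. The computations were tested on simulated data and run in Python 3.11.15 with pandas 2.3.3 and scipy 1.17.1. Alternatives changed the library set, filters, pseudocount and overlap. Sequences of the loci were not used here.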

Additional observations from a re-analysis of the deposited data

How the results depend on the processing

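Of 55 alternatives run over 8 results, 45 moved the value by less than the spread between replicates (for counts, by less than 1.5 times). Leaving out each library in turn gave -0.25 to -0.14 for the T minus nuclear C difference, 40.3% to 43.6% for T loci above the median C locus, 3.45% to 4.03% for T loci listed at 0, 0.028 to 0.10 for T loci with minus without C overlap, 0.021 to 0.096 for the difference within length ranges, 0.0890 to 0.0943 for library 1 against the others, 194 for detected T loci and 64 for C loci at 0 beside a T locus that is not. Among loci without overlap 0% of T loci were listed at 0, beside 0.401% of nuclear C loci. T loci with C overlap differed from the others by 0.23 as a mean over loci, by 0.15 within length ranges, and by -0.26 where at least 50% of the T locus had to be shared, so the sign of that comparison depends on the overlap asked for. The difference within length ranges was -0.0375 as a mean over loci, of the other sign than the median. The difference of library 1 was 0.0835 with a mean of at least 10 FPKM, 0.16 after scaling the libraries to the same C median, and 0.10 relative to the C median of each chromosome, an alternative chosen after seeing the data, as were the length ranges for C overlap, the restriction to C loci in the length range of T loci and all settings for the C loci at 0. No paired analysis was possible because there was 1 condition. Strand, shared bases and the shallower libraries 2 and 3 limit the values of overlapping and low T loci.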
